A study of Mus musculus with 12 samples.

Results

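A set of 36 genes of macrophages and other myeloid cells was followed in the trigeminal nerve of mice, which carries sensation from the face, by RNA sequencing of polyA RNA. They are 36 of the 47480 gene rows of the deposited table and were chosen by name from known functions, as genes of all macrophages, of resident macrophages, of lipid-handling macrophages and of related myeloid programs. The study set 6 samples of plexiform neurofibroma from Nf1 flox/flox PostnCre+ mice against 6 samples of normal nerve from Nf1 flox/flox PostnCre- mice. All 12 samples thus carried floxed Nf1, and the Cre recombinase, named for Postn, was present in the tumour group alone, so that genotype and tumour state cannot be told apart. The labels give no age, sex, litter or batch, and do not state which cells the Cre acts in or that the samples came from separate animals, so p-values measure the spread between these samples.

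Plexiform neurofibroma is a benign tumour of the nerve sheath in which Schwann lineage cells have lost Nf1, and macrophages are known as abundant companions of the tumour cells. Peripheral nerve also holds resident macrophages in health, which clear debris and are marked in many tissues by the scavenger and endocytic receptors Lyve1, Cd163, Mrc1 and Folr2. Macrophages that have taken up lipid, for example after myelin breakdown, are known instead for Trem2, a lipid-sensing receptor, and Gpnmb, a lysosomal membrane glycoprotein. In whole tissue, a change in the number of such cells and a change in RNA per cell cannot be told apart.

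The samples carry no replicate number in the labels, and the numbers 1 to 6 used here only name the samples of each group in their listed order. Library totals ran from 14160025 to 19989351 estimated counts. Nf1 itself averaged 83.5 CPM ± 8.10 (SD, n = 6) in plexiform neurofibroma and 130.7 CPM ± 35.7 (SD, n = 6) in normal nerve, where CPM is the count scaled to a common library total. The files show 3 libraries that stood apart by markers of other tissue. The summed level of 10 skeletal muscle genes was 1996 CPM in plexiform neurofibroma replicate 1 and 521.3 CPM in normal nerve replicate 3, and at most 102 CPM in the other libraries. The summed level of 10 central nervous system genes was 1444 CPM in normal nerve replicate 6 and at most 434.8 CPM elsewhere.

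Called higher in the tumours were 2 of 10 pan-myeloid genes, 3 of 5 Fc receptors and adaptors and 4 of 5 lipid-handling genes. So were 1 of 5 lysosome and oxidase genes, Cybb, and 2 of 4 tested pattern recognition receptors. None of 3 tested resident receptors and none of 2 microglial genes was called higher. With 10.0% of all tested genes called higher, so few genes say little. The rises among called members ran from 1.63-fold for Apoe to 3.35-fold for Aif1. Of the 36 members, 34 passed the expression filter. At an edgeR quasi-likelihood adjusted p under 0.05 over all tested genes, 12 of the 34 were higher in plexiform neurofibroma and 1, Cd163, was lower. Those shares were 35.3% higher and 2.94% lower, against 10.0% higher and 8.63% lower, 18.7% in all, among all 17236 genes tested. Without the 3 libraries that stood apart, 21 members were called higher and 1, Lcp1, lower, against 12.4% higher and 10.9% lower among all genes tested. The higher calls then numbered 5 of the pan-myeloid genes, 5 of the Fc receptors and adaptors, 3 each of the lipid, lysosome and pattern recognition genes, both microglial genes and 0 of the resident receptors. Of these 3 libraries, normal nerve replicates 3 and 6 had the highest normal level for 15 and 12 of the 34 tested members. The added calls and larger rises of this fit, chosen after seeing the data, are therefore no separate support for a rise. The fold change was above 1 for 30 of the 34, or 88.2%, against 47.5% of all genes tested, and the median log2 fold change was 0.90 against -0.02. Members passed the filter partly through their level in one group, and they rose and fell together across libraries, so these shares describe the list and are not a test of it. Every library of one group lay above every library of the other for 2 members, Aif1 and Apoe, both higher in the tumours, as for 4.4% of all genes tested, while no member lay wholly lower, as 2.99% of all genes did.

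**Figure D1:**
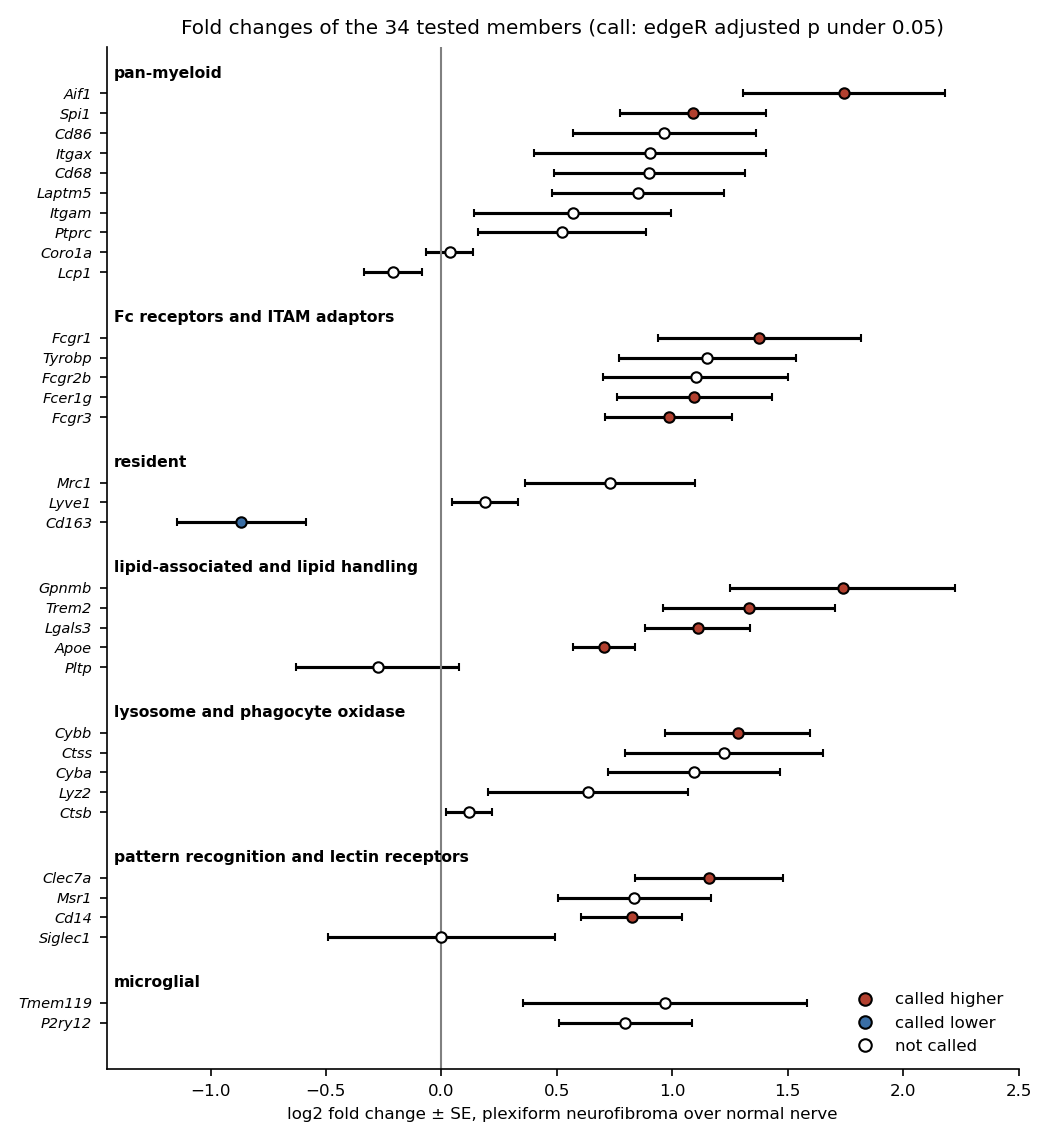
Log2 fold change (horizontal axis, plexiform neurofibroma over normal nerve, bars are ± SE) of each of the 34 tested members (rows, grouped by role), from edgeR on 6 against 6 libraries. Called members lie to the right of 0 except Cd163 at -0.87, and the resident members Lyve1 and Mrc1 lie at 0.19 and 0.73 without a call.

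The sequence upstream of the genes was examined because Spi1, itself a member, encodes PU.1, a factor that macrophage genes depend on and that binds the letters GAGGAA. RefSeq windows on GRCm38.p6, from 250 bases before to 50 bases after the start of the gene, were matched by symbol for 26 of the 36 members. Windows of 4 called higher members from 4 classes and the window of the only lower member are shown 5′ to 3′ on the strand of the gene, with the letters TTCCTC, which are GAGGAA on the opposite strand, in capitals.
Aif1: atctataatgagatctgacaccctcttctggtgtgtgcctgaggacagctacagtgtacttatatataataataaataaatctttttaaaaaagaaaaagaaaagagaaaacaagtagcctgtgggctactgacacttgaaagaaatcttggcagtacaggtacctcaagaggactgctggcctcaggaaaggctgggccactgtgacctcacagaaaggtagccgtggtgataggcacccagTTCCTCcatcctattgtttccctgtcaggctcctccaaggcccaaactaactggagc
Fcgr1: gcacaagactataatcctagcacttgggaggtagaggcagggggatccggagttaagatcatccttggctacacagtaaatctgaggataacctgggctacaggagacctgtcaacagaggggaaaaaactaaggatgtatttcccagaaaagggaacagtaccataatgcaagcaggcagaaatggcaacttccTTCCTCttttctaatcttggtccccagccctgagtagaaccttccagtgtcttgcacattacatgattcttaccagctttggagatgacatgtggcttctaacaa
Cybb: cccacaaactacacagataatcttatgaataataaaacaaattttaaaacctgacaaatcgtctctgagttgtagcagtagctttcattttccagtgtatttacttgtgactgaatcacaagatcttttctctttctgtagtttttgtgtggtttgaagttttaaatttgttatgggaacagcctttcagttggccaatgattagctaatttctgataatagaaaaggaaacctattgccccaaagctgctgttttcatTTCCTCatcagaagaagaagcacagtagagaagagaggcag
Trem2: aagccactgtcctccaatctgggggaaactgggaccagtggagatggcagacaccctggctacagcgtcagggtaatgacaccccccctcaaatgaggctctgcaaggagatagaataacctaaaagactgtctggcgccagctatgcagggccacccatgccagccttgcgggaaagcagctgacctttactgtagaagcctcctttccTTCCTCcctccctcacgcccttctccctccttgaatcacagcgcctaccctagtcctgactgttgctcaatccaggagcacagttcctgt
Cd163: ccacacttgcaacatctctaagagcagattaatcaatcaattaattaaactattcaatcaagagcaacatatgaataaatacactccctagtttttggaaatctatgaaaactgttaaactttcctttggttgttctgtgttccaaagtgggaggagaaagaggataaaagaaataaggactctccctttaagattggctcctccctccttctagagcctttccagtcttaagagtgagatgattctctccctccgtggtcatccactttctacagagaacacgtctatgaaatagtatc
The windows lie at chr17:35176003-35176302 (Aif1, minus strand), chr3:96293920-96294219 (Fcgr1, minus strand), chrX:9469275-9469574 (Cybb, minus strand), chr17:48346151-48346450 (Trem2, plus strand) and chr6:124304401-124304700 (Cd163, plus strand). The RefSeq start of Cybb lies inside the longer gene span of the annotation used for coordinates here. GAGGAA, searched on both strands, stood in 14 of the 26 member windows, or 53.8%, against 28.3% of the 27025 gene windows of the same length. It stood in 7 of 10 windows of members called higher, in 7 of 14 windows of tested members not called, and not in that of Cd163. All 4 higher windows shown hold it, while those of Fcer1g, Gpnmb and Lgals3, called higher and not shown, do not. With only 1 lower window, no split by direction can be read from the windows shown. CACGTG, the letters of the E-box that lysosomal gene regulators bind, stood in 1 member window, that of P2ry12, and in 7.24% of all windows, and no member window held both motifs. Base composition was not matched in these shares, and a match is a string of letters and not a binding site.

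The genes that mark macrophages and leukocytes in general differed in how they moved. Of 10, Aif1 and Spi1 were called higher and none lower, with a median log2 fold change of 0.88. Aif1 encodes IBA1, an actin-bundling protein used as the standard macrophage stain. Its level (chromosome 17, 35170991 to 35176068, GRCm38) had a lowest, median and highest of 5.73, 8.12 and 10.1 CPM in plexiform neurofibroma, against 0.761, 1.44 and 5.05 CPM in normal nerve. The groups did not overlap, and the 3.35-fold difference (log2 1.75, SE 0.44) passed the test at adjusted p = 0.0177. It also passed in each of the 12 fits that left out 1 library, with a highest adjusted p of 0.0412, and its log2 fold change was 2.82 without the 3 libraries that stood apart.

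Spi1 (chromosome 2, 91082390 to 91115756) ran from 3.90 to 6.46 CPM with a median of 5.15 in the tumours, against 1.07 to 4.04 CPM with a median of 2.10 in normal nerve. In 5 of the 6 tumour libraries the level lay above every normal library, and the rise was 2.13-fold (log2 1.09, SE 0.32, adjusted p = 0.0306). The call was lost in some fits: without any one of plexiform neurofibroma replicates 2, 4 and 6 or normal nerve replicates 1, 2, 4 and 5 the adjusted p was 0.051 to 0.0683, with log2 fold changes between 0.94 and 1.07. Without the 3 libraries that stood apart it held, with a log2 fold change of 1.69. Cd68, a lysosomal glycoprotein of macrophages, averaged 7.20 CPM ± 2.39 in the tumours and 3.85 CPM ± 2.32 in normal nerve (SD, n = 6 each) and did not pass (adjusted p = 0.140). Laptm5, a lysosomal protein of blood cells, averaged 28.9 CPM ± 8.40 in the tumours and 16.0 CPM ± 9.88 in normal nerve (adjusted p = 0.124), and Cd86, a costimulatory ligand for T cells, 2.76 CPM ± 0.800 in the tumours and 1.42 CPM ± 0.749 in normal nerve (adjusted p = 0.102). Their groups overlapped.

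The integrins and the common leukocyte genes did not pass either. Ptprc encodes CD45, the phosphatase on all leukocytes, and its median was 9.01 CPM in the tumours and 4.66 CPM in normal nerve (adjusted p = 0.325). Itgam, the CD11b chain of the complement receptor, had medians of 6.29 CPM in the tumours and 3.63 CPM in normal nerve, and its highest level of all, 12.0 CPM, was in normal nerve replicate 6 (adjusted p = 0.363). Itgax, the CD11c chain, stayed at or below 2.82 CPM in every library (adjusted p = 0.217). Without normal nerve replicate 6, Itgam passed at adjusted p = 0.0253 with a log2 fold change of 1.08, and Laptm5 passed at adjusted p = 0.0326 with 1.15. A pair of actin regulators of leukocytes gave no call in either direction. Lcp1, the actin bundler plastin, averaged 159 CPM ± 12.8 in the tumours and 184 CPM ± 37.3 in normal nerve, and Coro1a, coronin, averaged 72.2 CPM ± 6.80 in the tumours and 70.5 CPM ± 10.9 in normal nerve (SD, n = 6 each; adjusted p = 0.244 and 0.831). Per kilobase of the longest transcript they stood at 41.28 and 41.35 CPM in the tumours, far above Ptprc at 1.58 and Itgam at 1.51 CPM per kilobase. Lcp1 was highest, at 235.6 CPM, in normal nerve replicate 5, which had the lowest normal level for 11 of the 34 tested members. How much of the Lcp1 and Coro1a RNA came from leukocytes was not tested. Lcp1 was called lower without normal nerve replicate 6 (log2 -0.30, adjusted p = 0.0226). Coro1a overlaps the opposite-strand gene Bola2, at a mean of 27.8 CPM, and whether counting used strand is not given in the sources used here.

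**Figure D2:**
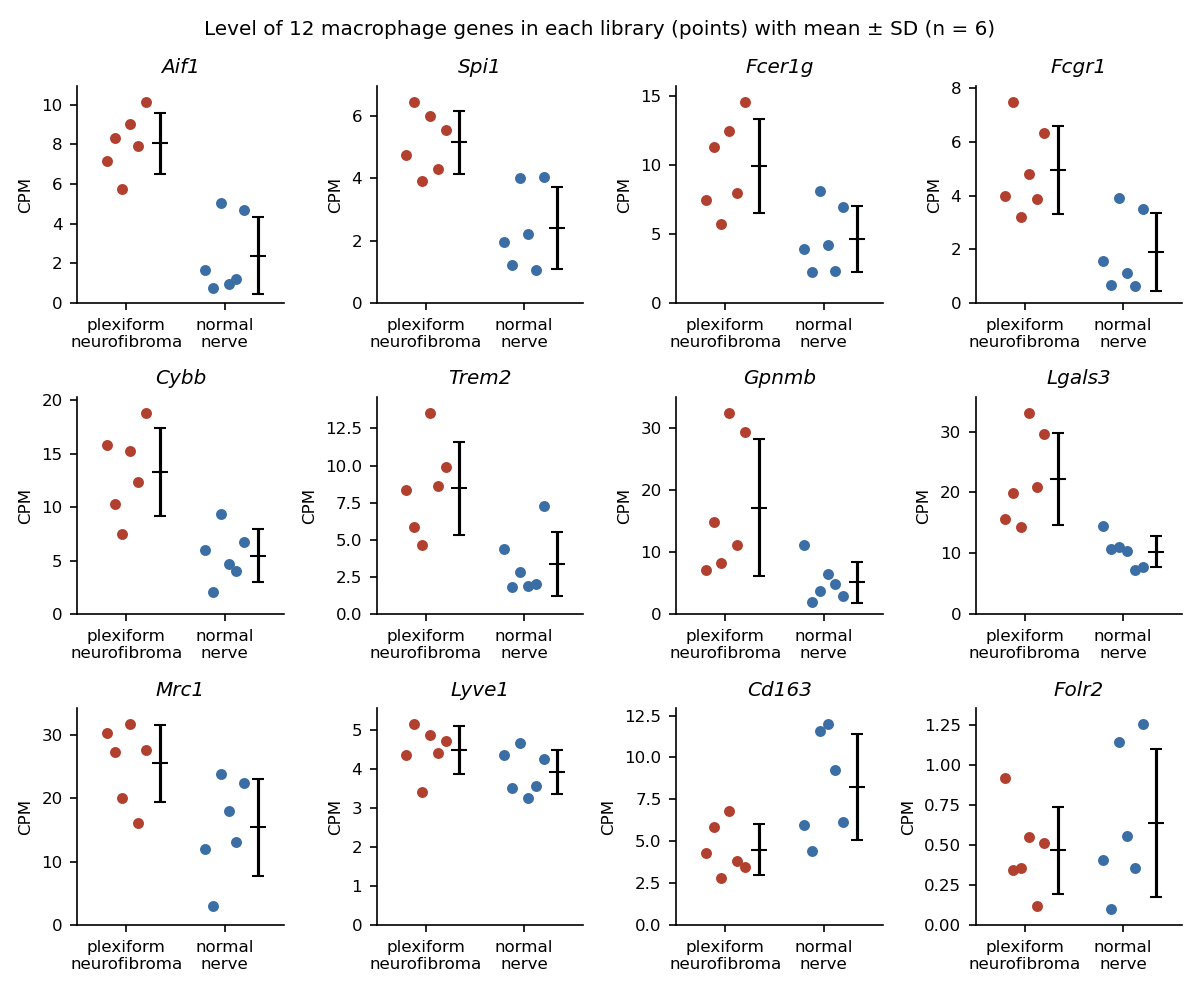
Level in CPM (vertical axis, from 0) of 12 members in each of 6 plexiform neurofibroma libraries (left, red) and 6 normal nerve libraries (right, blue), with the mean ± SD beside the points. Aif1 separates the groups, Lyve1 lies between 3.26 and 5.14 CPM in all 12 libraries, and Cd163 is the one member of the 12 with a call in the other direction.

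The receptors for antibody and their signalling adaptors held 3 of the 12 higher calls among 5 genes. All 5 had a log2 fold change above 0, with a median of 1.10. Fcgr1, the high-affinity receptor for IgG, had a lowest, median and highest of 3.19, 4.40 and 7.48 CPM in plexiform neurofibroma, against 0.640, 1.34 and 3.90 CPM in normal nerve. Fcgr3, the activating low-affinity receptor, had 8.17, 13.3 and 16.6 CPM in plexiform neurofibroma, against 3.15, 6.34 and 10.8 CPM in normal nerve. Fcer1g, the adaptor through which both signal, had 5.73, 9.63 and 14.6 CPM in plexiform neurofibroma, against 2.28, 4.09 and 8.10 CPM in normal nerve. In each of these 3 the lowest tumour libraries overlapped the highest normal ones, normal nerve replicate 3 being the highest normal library every time. The rises were 2.60-fold for Fcgr1 (adjusted p = 0.0455), 1.98-fold for Fcgr3 (adjusted p = 0.0268) and 2.14-fold for Fcer1g (adjusted p = 0.0388).

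Tyrobp, also called DAP12, the adaptor that pairs with TREM2, had a median of 12.7 CPM in the tumours and 4.66 CPM in normal nerve, and its 2.22-fold difference missed the threshold at adjusted p = 0.0530. Fcgr2b, the inhibitory IgG receptor, had a median of 11.9 CPM in the tumours and 5.71 CPM in normal nerve (adjusted p = 0.0712). Reads of Fcgr2b and Fcgr3, which share much of their sequence, may have been divided between them by the authors' estimates. These calls sat close to the threshold. Fcgr1 lost its call without any one of plexiform neurofibroma replicates 1, 2, 4, 5 and 6 or normal nerve replicates 1, 2, 4 and 5 (adjusted p 0.0556 to 0.0988). Fcer1g lost it without plexiform neurofibroma replicates 2, 4 or 6 or normal nerve replicates 1, 2, 4 or 5 (adjusted p 0.0644 to 0.0866), and Fcgr3 without plexiform neurofibroma replicates 2, 4 or 6 or normal nerve replicates 4 or 5 (adjusted p 0.0525 to 0.0644). Fcgr1 and Fcer1g also lost their calls with no expression filter (adjusted p = 0.0731 and 0.0633) and with the transcript length correction (adjusted p = 0.0542 and 0.0677). Tyrobp passed without plexiform neurofibroma replicate 3 (adjusted p = 0.0370) or normal nerve replicates 3 or 6 (adjusted p = 0.0325 and 0.0226), and Fcgr2b without normal nerve replicate 6 (adjusted p = 0.0360). Without the 3 libraries that stood apart, all 5 passed, and the log2 fold changes were 2.35 for Fcgr1 and 1.70 for Fcer1g, against 1.38 and 1.09 over all libraries.

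Genes of lipid-laden macrophages and of lipid transport held 4 of the 12 higher calls. Apoe, the lipid carrier apolipoprotein E, was by far the most abundant member, at 1996 CPM per kilobase in the tumours and 1225 CPM per kilobase in normal nerve, and is known to be made by glia as well as macrophages. Its lowest, median and highest levels were 2455, 2840 and 3237 CPM in plexiform neurofibroma, against 1340, 1700 and 2168 CPM in normal nerve. The groups did not overlap, with a 1.63-fold rise (log2 0.70, SE 0.13, adjusted p = 0.00516). Lgals3, galectin-3, a sugar-binding protein of phagocytes that also marks other cells, ran from 14.3 to 33.0 CPM in the tumours, with a median of 20.4 CPM, against 7.25 to 14.5 CPM and a median of 10.5 CPM in normal nerve. It rose 2.16-fold (adjusted p = 0.00716). Both calls held with any 1 library left out.

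Trem2 (chromosome 17, 48346401 to 48354147) had a lowest, median and highest of 4.62, 8.49 and 13.5 CPM in plexiform neurofibroma, against 1.83, 2.402 and 7.28 CPM in normal nerve. Of the normal libraries, 5 lay below every tumour library, and replicate 6 did not. Gpnmb (chromosome 6, 49036546 to 49070929) had 7.10, 13.1 and 32.4 CPM in plexiform neurofibroma, against 1.93, 4.22 and 11.1 CPM in normal nerve, and within the tumours replicate 1 was lowest and replicate 4 highest. Trem2 rose 2.52-fold (log2 1.33, SE 0.37, adjusted p = 0.0268) and Gpnmb 3.335-fold (log2 1.74, SE 0.49, adjusted p = 0.0284). The call of Trem2 was lost without any one of plexiform neurofibroma replicates 4 and 6 or normal nerve replicates 4 and 5 (adjusted p 0.0523 to 0.0674), and that of Gpnmb without any one of plexiform neurofibroma replicates 4 and 6 or normal nerve replicates 2, 3 and 5 (adjusted p 0.0522 to 0.0711). Gpnmb was also lost without the 3 libraries that stood apart (log2 1.66, adjusted p = 0.0647) and with no expression filter (adjusted p = 0.0747). Pltp, the phospholipid transfer protein, had medians of 19.1 CPM in the tumours and 17.0 CPM in normal nerve. Its mean was lower in the tumours, at 17.4 CPM ± 3.44 against 21.1 CPM ± 14.4 in normal nerve (SD, n = 6 each), with normal nerve replicate 6 at 48.3 CPM, and the difference did not pass (log2 -0.28, adjusted p = 0.606, and 0.15 without that library). Pltp overlaps the opposite-strand gene Ctsa, at a mean of 119.8 CPM.

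Of the 4 resident macrophage receptors, 3 were tested and none was called higher, where 10.0% of all tested genes were. Folr2 was too low to be tested, 1 of the other 3 was called lower, and the 3 had a median log2 fold change of 0.19. Cd163, the haptoglobin-haemoglobin scavenger receptor (chromosome 6, 124304656 to 124330527), had a lowest, median and highest of 2.79, 4.06 and 6.79 CPM in plexiform neurofibroma, against 4.41, 7.70 and 12.0 CPM in normal nerve. Of the tumour libraries, 4 lay below every normal library, and 3 normal libraries lay above every tumour library, so the groups overlapped in the middle. The level in the tumours was 0.5485 of that in normal nerve (log2 -0.87, SE 0.28, adjusted p = 0.0475). The call was lost without any one of plexiform neurofibroma replicates 1, 2, 3, 5 and 6 or normal nerve replicates 3, 4 and 5 (adjusted p 0.0586 to 0.103), and without the 3 libraries that stood apart (log2 -0.79, adjusted p = 0.105). It was also lost with no expression filter (adjusted p = 0.0767), with a correction for transcript length (adjusted p = 0.0653) and with the muscle score as a covariate (adjusted p = 0.0649). In all, Cd163 was called in 10 of 22 other settings, among them DESeq2 (adjusted p = 0.0182) and limma-voom with sample weights (adjusted p = 0.0112).

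Lyve1, the hyaluronan receptor, lay in a narrow range. It had 3.40, 4.56 and 5.14 CPM as lowest, median and highest in plexiform neurofibroma, against 3.26, 3.90 and 4.65 CPM in normal nerve, and the difference of 1.14-fold did not pass (adjusted p = 0.365). Lyve1 is also a gene of lymphatic endothelium. Genes of the lymphatic list summed to 243.5 to 427.8 CPM in the tumours and 57.0 to 282.5 CPM in normal nerve. Of 6 tested, 4 had a log2 fold change above 0 and only Pdpn, which other cells share, was called higher. Flt4, named after its values were seen, and Prox1 lay below 0, at log2 -0.62 (adjusted p = 0.0799) and -1.10, without a call. Most of the sum was Reln, named after its values were seen, at 304.6 CPM ± 79.8 in the tumours and 138.1 CPM ± 76.0 in normal nerve (SD, n = 6 each; adjusted p = 0.0516). Prox1, the factor that defines lymphatic endothelium, also named after its values were seen, averaged 1.68 CPM ± 1.43 in the tumours (SD, n = 6). In normal nerve it stood at 14.1 CPM in replicate 6 and averaged 1.545 CPM ± 1.24 in the other libraries (SD, n = 5), and with all 12 libraries it did not pass (adjusted p = 0.358). Normal nerve replicate 6 also held 1444 CPM over the central nervous system list, whose part in its Prox1 level was not tested. The part of lymphatic cells in the level of Lyve1 was not tested. Mrc1, the mannose receptor CD206, had medians of 27.4 CPM in the tumours and 15.6 CPM in normal nerve, and its 1.66-fold difference did not pass (adjusted p = 0.175). Folr2, the folate receptor beta, had 2 to 18 counts per tumour library and 2 to 20 per normal library. Fitted without the filter, its log2 fold change was -0.41 (adjusted p = 0.662).

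The contrast between resident and pan-macrophage genes was examined within each library, which sets the resident genes against more general macrophage and leukocyte genes of the same sample. The general genes include Ptprc, found on all leukocytes, so the difference is not a resident share of macrophage RNA. For each library, the mean log2 CPM of 8 pan-macrophage genes (Aif1, Cd68, Ptprc, Spi1, Laptm5, Fcer1g, Tyrobp and Ctss) was subtracted from that of the 4 resident genes. The mean of the pan-macrophage genes was 3.57 ± 0.40 in plexiform neurofibroma and 2.34 ± 0.87 in normal nerve (SD, n = 6 each), while that of the resident genes was 2.01 ± 0.35 in plexiform neurofibroma and 2.00 ± 0.63 in normal nerve. The pan-macrophage genes were thus 1.24 log2 units higher in the tumours and the resident genes 0.011 units higher. The resident minus pan-macrophage difference was -1.56 ± 0.29 in plexiform neurofibroma, from -1.92 to -1.24, and -0.34 ± 0.57 in normal nerve, from -0.91 to 0.47. The groups did not overlap. The gap between their means was -1.23 log2 units, lay between -1.34 and -1.065 with any 1 library left out, and was -1.51 without the 3 libraries that stood apart. The 8 genes are not the pan-myeloid class described above: they leave out Itgam, Itgax, Lcp1, Coro1a and Cd86 and take Fcer1g, Tyrobp and Ctss from other classes. Against all 10 genes of that class, an alternative added after seeing the data, the resident difference was -1.44 ± 0.21 in plexiform neurofibroma and -0.57 ± 0.44 in normal nerve, a smaller gap of -0.88, and the groups again did not overlap. No test is given, because the genes were chosen with results of these data known.

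The 4 resident genes contributed unequally to this contrast. Relative to the pan-macrophage genes, Cd163 stood at -1.43 ± 0.37 in the tumours and 0.63 ± 0.95 in normal nerve without overlap, a gap of -2.06 log2 units. The gap was -1.49 for Folr2, -1.05 for Lyve1 and -0.31 for Mrc1, each with overlapping groups, so Mrc1 had the smallest gap of the 4. Folr2 had only 2 to 18 counts per tumour library and 2 to 20 per normal library, so its gap rests on few reads. Its own log2 fold change, fitted without the filter, was -0.41 (adjusted p = 0.662), yet it weighs as much as each other gene in the resident mean. Against the 10 genes of the pan-myeloid class the gaps were -1.71 for Cd163, -1.14 for Folr2 and -0.70 for Lyve1, and that of Mrc1 turned to 0.043. For Trem2 and Gpnmb, the lipid-associated minus pan-macrophage difference was -0.13 ± 0.38 in the tumours and -0.45 ± 0.76 in normal nerve, a gap of 0.32 with overlapping groups. That gap was 0.089 without normal nerve replicate 3 and 0.19 without replicate 6, and -0.0351 without the 3 libraries that stood apart, and it was 0.67 against the 10 genes of the pan-myeloid class. Trem2 alone had a gap of 0.18 and Gpnmb one of 0.46.

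**Figure D3:**
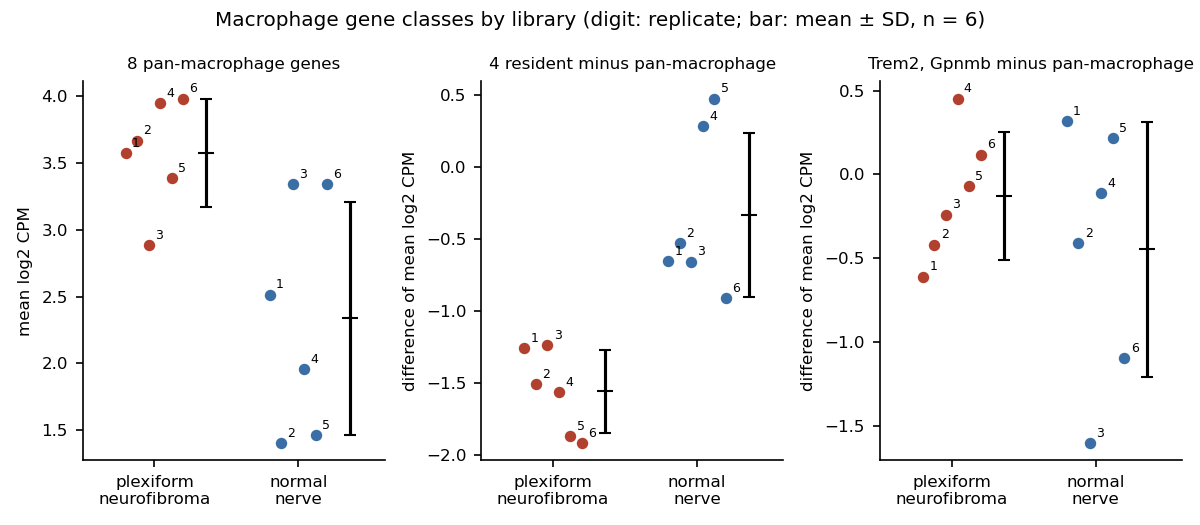
Mean log2 CPM of 8 pan-macrophage genes by library (left) and the differences from it of 4 resident genes (middle) and of Trem2 and Gpnmb (right), in log2 units, for plexiform neurofibroma (left of each panel) and normal nerve (right), with the replicate number at each point and bars for the mean ± SD. The resident difference is at or below -1.24 in every tumour library and at or above -0.91 in every normal library, while the lipid-associated differences overlap.

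Of 5 genes of the lysosome and the phagocyte oxidase, Cybb was called higher and none lower. Cybb encodes gp91phox, the catalytic chain of the NADPH oxidase that makes superoxide. It had a lowest, median and highest of 7.46, 13.8 and 18.8 CPM in plexiform neurofibroma, against 2.08, 5.31 and 9.36 CPM in normal nerve. Of the tumour libraries, 5 lay above every normal library, and the rise was 2.43-fold (log2 1.28, SE 0.31, adjusted p = 0.0159), a call that held with any 1 library left out. Cyba, the p22phox chain that stabilises it, averaged 7.84 CPM ± 2.09 in the tumours and 3.66 CPM ± 2.25 in normal nerve (SD, n = 6 each) and missed the threshold at adjusted p = 0.0577. Ctss, a cathepsin that serves antigen presentation by MHC class II, had medians of 58.4 CPM in the tumours and 16.6 CPM in normal nerve and missed the threshold at adjusted p = 0.0634. Cyba passed without normal nerve replicate 3 (adjusted p = 0.0471) or 6 (adjusted p = 0.0147), and Ctss without plexiform neurofibroma replicate 3 (adjusted p = 0.0494) or normal nerve replicates 3 (adjusted p = 0.0466) or 6 (adjusted p = 0.0219).

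The other members of this class were abundant and did not pass. Lyz2, the macrophage lysozyme, ran from 45.6 to 144 CPM in the tumours and from 13.1 to 101 CPM in normal nerve (adjusted p = 0.316), with reads that may be shared with its paralog Lyz1. Ctsb, a cathepsin that most cells make, averaged 1308 CPM ± 91.9 in the tumours and 1204 CPM ± 174 in normal nerve (SD, n = 6 each; adjusted p = 0.419). Per kilobase, Ctsb stood at 275.7 CPM, Lyz2 at 66.7 and Ctss at 39.2 in the tumours, against 253.8, 42.9 and 16.7 CPM in normal nerve. Ctsb overlaps Fdft1, at a mean of 211.1 CPM, and Cyba overlaps Gm20388, at 28.6 CPM, both on the opposite strand.

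Among 5 receptors for microbial patterns and sugars, Cd14 and Clec7a were called higher, and Clec10a did not pass the filter. Cd14, the coreceptor for endotoxin, had a lowest, median and highest of 3.94, 4.38 and 5.77 CPM in plexiform neurofibroma, against 1.71, 2.33 and 4.25 CPM in normal nerve. Clec7a, dectin-1, the receptor for fungal beta-glucan, had 3.08, 4.62 and 6.20 CPM in plexiform neurofibroma, against 0.609, 2.48 and 3.10 CPM in normal nerve. In both, 5 of the 6 normal libraries lay below every tumour library. The rises were 1.77-fold for Cd14 (adjusted p = 0.0214) and 2.235-fold for Clec7a (adjusted p = 0.0255). Cd14 lost its call without plexiform neurofibroma replicate 4 (adjusted p = 0.0531), and Clec7a without plexiform neurofibroma replicate 6 (adjusted p = 0.0589) or normal nerve replicate 5 (adjusted p = 0.0569). Msr1, the scavenger receptor SR-A, had medians of 3.08 CPM in the tumours and 1.64 CPM in normal nerve (adjusted p = 0.0906, and 0.0307 without normal nerve replicate 6). Siglec1, the sialic acid receptor CD169 of tissue-resident macrophages, averaged 1.54 CPM in both groups, with an SD of 0.685 in the tumours and 1.10 in normal nerve (adjusted p = 0.999). Clec10a, a galactose lectin of macrophages and dendritic cells, had 3 to 22 counts per tumour library and 4 to 22 per normal library.

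Of the genes used to mark microglia, the macrophages of the central nervous system, neither P2ry12 nor Tmem119 was called. P2ry12, a receptor for ADP, had a lowest, median and highest of 14.6, 17.6 and 26.8 CPM in plexiform neurofibroma, against 6.44, 9.26 and 21.3 CPM in normal nerve (adjusted p = 0.0694). Tmem119, a membrane protein, had 3.25, 6.44 and 9.49 CPM in plexiform neurofibroma, against 0.555, 1.72 and 10.7 CPM in normal nerve (adjusted p = 0.279). The highest normal level of both was in replicate 6, the library with 1444 CPM over the central nervous system list, whose part in these levels was not tested. Without it, P2ry12 passed at adjusted p = 0.00616 with a log2 fold change of 1.07, and Tmem119 at adjusted p = 0.0241 with 1.74. P2ry12 lies within the opposite-strand gene Med12l, at a mean of 25.9 CPM.

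**Figure D4:**
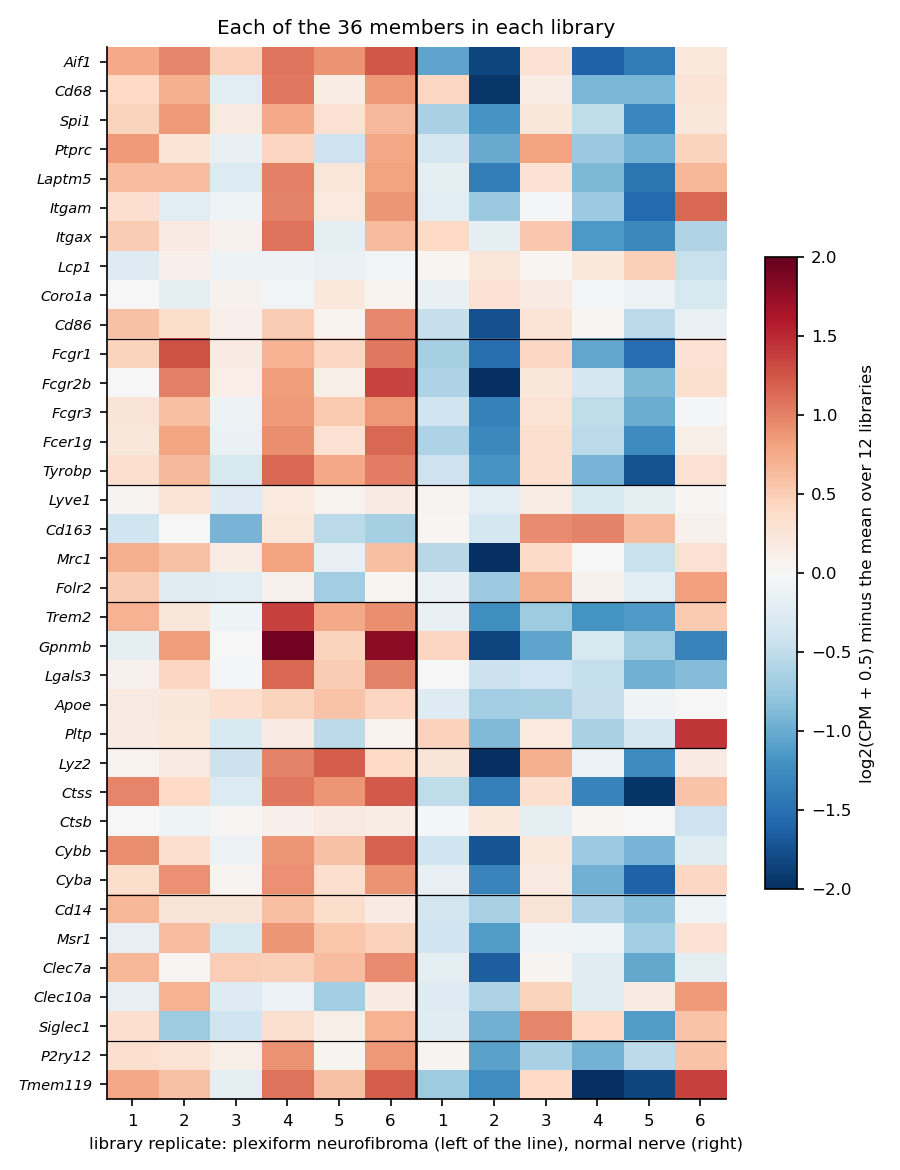
Level of each of the 36 members (rows, grouped by role) in each library (columns, plexiform neurofibroma replicates 1 to 6 left of the line and normal nerve replicates 1 to 6 right of it), as log2(CPM + 0.5) minus the mean of the gene over the 12 libraries. Normal nerve replicates 2 and 5 are low across most rows and replicates 3 and 6 high, while the Cd163 row is high in normal nerve replicates 3, 4 and 5.

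The members varied together within each group. Plexiform neurofibroma replicate 3 had the lowest tumour level for 18 of the 34 tested members, and replicates 4 and 6 had the highest for 13 and 10. Normal nerve replicate 2 had the lowest normal level for 18 and replicate 5 for 11, while replicates 3 and 6 had the highest for 15 and 12. The mean of the 8 pan-macrophage genes spanned 2.89 to 3.98 log2 CPM in plexiform neurofibroma and 1.405 to 3.34 log2 CPM in normal nerve, so that the highest normal libraries lay within the range of the tumours.

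Wider lists of the same programs held further higher calls and no lower call. Their counts stand beside 10.0% of all tested genes called higher and a median log2 fold change of -0.02 over all of them. In a second list for lipid-associated or disease-associated macrophages, which shares Itgax with the 36, 17 genes were tested and 6 were called higher, with a median log2 fold change of 0.52 over those tested. These included Lgals1 (galectin-1, 2.08-fold, adjusted p = 0.00167), Axl (a receptor for dying cells, 2.63-fold, adjusted p = 0.00253), Spp1 (osteopontin, 2.965-fold, adjusted p = 0.00329) and Ctsz (a cathepsin, 1.43-fold, adjusted p = 0.00561), with Plin2 and Cd63, named after their values were seen, below them in order of p. Several of these are also genes of Schwann cells and fibroblasts. Of 9 tested further genes of resident macrophages none was called in either direction, with a median log2 fold change of 0.32. The smallest p among them was that of Ccl7, a chemokine for monocytes, at 3.08-fold (adjusted p = 0.0629), which passed without plexiform neurofibroma replicate 5 (adjusted p = 0.0411) or normal nerve replicate 6 (adjusted p = 0.0270).

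The oxidase and the signalling chain below the Fc receptors were also covered. Of 7 subunits and regulators of the phagocyte oxidase, with a median log2 fold change of 1.004, 3 were called higher, among them Cybb and the cytosolic chain Ncf1 (p47phox, 2.01-fold, adjusted p = 0.0235). Of 12 tested kinases and adaptors below ITAM receptors, the receptors with paired tyrosine signalling motifs, 4 were called higher, and the median log2 fold change was 0.63. These included the kinases Lyn (1.56-fold, adjusted p = 0.0180) and Btk (2.07-fold, adjusted p = 0.0429) and the adaptor Lcp2 (1.45-fold, adjusted p = 0.0342). In the colony stimulating factor axis, which sustains macrophages, 2 of 6 were called higher and the median log2 fold change was 0.53. The ligand Il34 had a lowest, median and highest of 26.0, 29.9 and 37.2 CPM in plexiform neurofibroma, against 12.8, 19.1 and 23.0 CPM in normal nerve, without overlap (adjusted p = 0.00479). Its receptor Csf1r had 42.9, 61.8 and 83.8 CPM in plexiform neurofibroma, against 19.0, 32.0 and 65.8 CPM in normal nerve, a 1.80-fold rise (adjusted p = 0.0475). The call of Csf1r held in only 2 of the 12 fits that left out 1 library, those without plexiform neurofibroma replicate 3 or normal nerve replicate 6, with a highest adjusted p of 0.105. Btk held without plexiform neurofibroma replicates 3 or 5 or normal nerve replicates 3 or 6, and was lost in the other fits (highest adjusted p = 0.0919). Lcp2 was lost without plexiform neurofibroma replicates 2, 4 or 6 or normal nerve replicates 1, 3 or 5 (highest adjusted p = 0.0840), and Ncf1 without replicate 4 of either group (adjusted p = 0.0594 without the tumour and 0.0502 without the normal library).

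Genes of monocytes, the blood cells from which many tumour macrophages derive, gave calls for some of the list. Of 8 tested, with a median log2 fold change of 0.81, 4 were called higher: S100a4 (a calcium-binding protein, 3.345-fold, adjusted p = 0.00156), Nr4a1 (a nuclear receptor, 1.75-fold, adjusted p = 0.00325), Vcan (versican, 2.70-fold, adjusted p = 0.00639) and Cx3cr1 (the fractalkine receptor, 2.81-fold, adjusted p = 0.0371). The first 3 are widely made by nerve fibroblasts or other cells as well. A pair of genes that define classical monocytes, chosen after their values were seen, gave no call. Ccr2 averaged 5.21 CPM ± 1.69 in the tumours and 4.38 CPM ± 2.91 in normal nerve (adjusted p = 0.706), and Ly6c2 averaged 0.680 CPM ± 0.342 in the tumours and 0.782 CPM ± 0.554 in normal nerve (SD, n = 6 each; adjusted p = 0.756).

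Of 10 further microglial genes, with a median log2 fold change of 1.01, 4 were called higher: Olfml3 (1.69-fold, adjusted p = 0.00299), Sparc (2.51-fold, adjusted p = 0.00831), Cx3cr1 and Siglech (2.98-fold, adjusted p = 0.0481). Sparc averaged 1908 CPM ± 498 in the tumours and 759.2 CPM ± 315.5 in normal nerve (SD, n = 6 each). P2ry12 averaged 19.7 CPM ± 5.38 in the tumours and 11.3 CPM ± 5.70 in normal nerve. How much of the Sparc and Olfml3 RNA came from macrophages was not tested. Sall1, the factor that defines microglia, chosen after its values were seen, stood at 13.5 CPM in normal nerve replicate 6 and at most 5.26 CPM in the other 11 libraries. Siglech held its call without plexiform neurofibroma replicate 2 or normal nerve replicate 6 alone, and Cx3cr1 without plexiform neurofibroma replicates 3 or 5 or normal nerve replicate 6 alone, with highest adjusted p-values of 0.101 and 0.0834 over the other fits. Without normal nerve replicate 6 the log2 fold change of Siglech was 2.34, against 1.57 over all libraries, and without the 3 libraries that stood apart it was 2.61 for Siglech and 2.20 for Cx3cr1, against 1.49 for Cx3cr1 over all libraries. Of 15 tested transcription factors of the monocyte lineage, with a median log2 fold change of 0.32, 4 were called higher. They were Nr1h3 (the sterol sensor LXR alpha, 1.96-fold, adjusted p = 0.00998), Irf5 (an inflammatory interferon regulatory factor, 1.41-fold, adjusted p = 0.0297), Spi1 and Cebpa (a partner of PU.1, 2.265-fold, adjusted p = 0.0354), the last with 33.0 CPM in plexiform neurofibroma replicate 1 and a tumour median of 11.3 CPM against 6.39 CPM in normal nerve. Irf5 was lost without plexiform neurofibroma replicates 2, 4 or 6 or normal nerve replicates 4 or 5 (highest adjusted p = 0.0723), and Cebpa without these tumour replicates or normal nerve replicates 2, 4 or 5 (highest adjusted p = 0.0763). Without the 3 libraries that stood apart, the higher calls were 1 of the resident list, 8 of the lipid-associated, 6 of the oxidase, 9 of the kinase and adaptor, 4 of the colony stimulating factor, 5 of the monocyte, 6 of the microglial and 6 of the transcription factor list, which then also held 1 lower call. Among all genes tested in that fit, 12.4% were called higher and 10.9% lower. With no expression filter, Btk, Csf1r, Cx3cr1, Siglech and Cebpa lost their calls (adjusted p 0.068 to 0.0943). Btk and Siglech also lost them with the transcript length correction (adjusted p = 0.055 and 0.0564), and Csf1r and Siglech with the muscle score as a covariate (adjusted p = 0.0543 and 0.0604).

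Markers of other cells moved as well, and their part in the results above was not tested. Of 10 Schwann cell genes 5 were called higher, with summed levels of 10330 to 17950 CPM in plexiform neurofibroma and 4858 to 11870 CPM in normal nerve. Of 8 fibroblast genes 5 were called higher, with sums of 1497 to 3497 CPM in the tumours and 232.4 to 1295 CPM in normal nerve. Normal nerve replicate 2, low in most macrophage genes, had the lowest sum of both lists. All 6 genes of the blood endothelium list had a log2 fold change below 0, with a median of -0.56 and summed levels of 65.5 to 114.7 CPM in the tumours and 81.3 to 198.8 CPM in normal nerve. Of these Cdh5, the cadherin of endothelial junctions, was called lower, at 0.619 of its level in normal nerve (adjusted p = 0.0278). The call of Cdh5 was lost without any one of plexiform neurofibroma replicates 3, 4, 5 and 6 or normal nerve replicates 2 and 3. No tested gene of neutrophils (4 tested), mast cells (6), B cells (3), red cells (5), muscle (6) or central nervous system (8) was called. With 10.0% of all tested genes called higher and 8.63% lower, the absence of calls in such short lists says little. All 5 red cell genes had a log2 fold change below 0, with a median of -1.44. Their sums ran from 98.7 to 1103 CPM in the tumours and from 193.3 to 4529 CPM in normal nerve, highest in replicate 6. Neutrophil genes summed to 1.10 to 18.2 CPM in the tumours and 1.42 to 14.7 CPM in normal nerve, and T and NK cell genes to 4.005 to 10.2 CPM in the tumours and 1.18 to 7.55 CPM in normal nerve. Of 3 tested T and NK cell genes, Klrb1c was called higher (adjusted p = 0.0467). With 1 library left out, the T and NK cell list held a higher call only without normal nerve replicate 1. It held none without the 3 libraries that stood apart. Among dendritic cell genes Siglech was higher and Flt3 lower. The call of Flt3 was lost without any one of plexiform neurofibroma replicates 1, 2, 4 and 6 or normal nerve replicates 4 and 5. The sensory neuron list summed to 8492 to 10750 CPM in the tumours and 7129 to 12540 CPM in normal nerve with Snap25 lower. Isl1 and Pou4f1 of that list were named after their values were seen. They averaged 97.6 CPM ± 8.44 and 106.3 CPM ± 19.3 in the tumours, and 111.3 CPM ± 25.2 and 137.1 CPM ± 36.4 in normal nerve (SD, n = 6 each). Whether the samples held neuron cell bodies was not tested. No list had a gene at 0 in all 12 libraries.

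**Figure D5:**
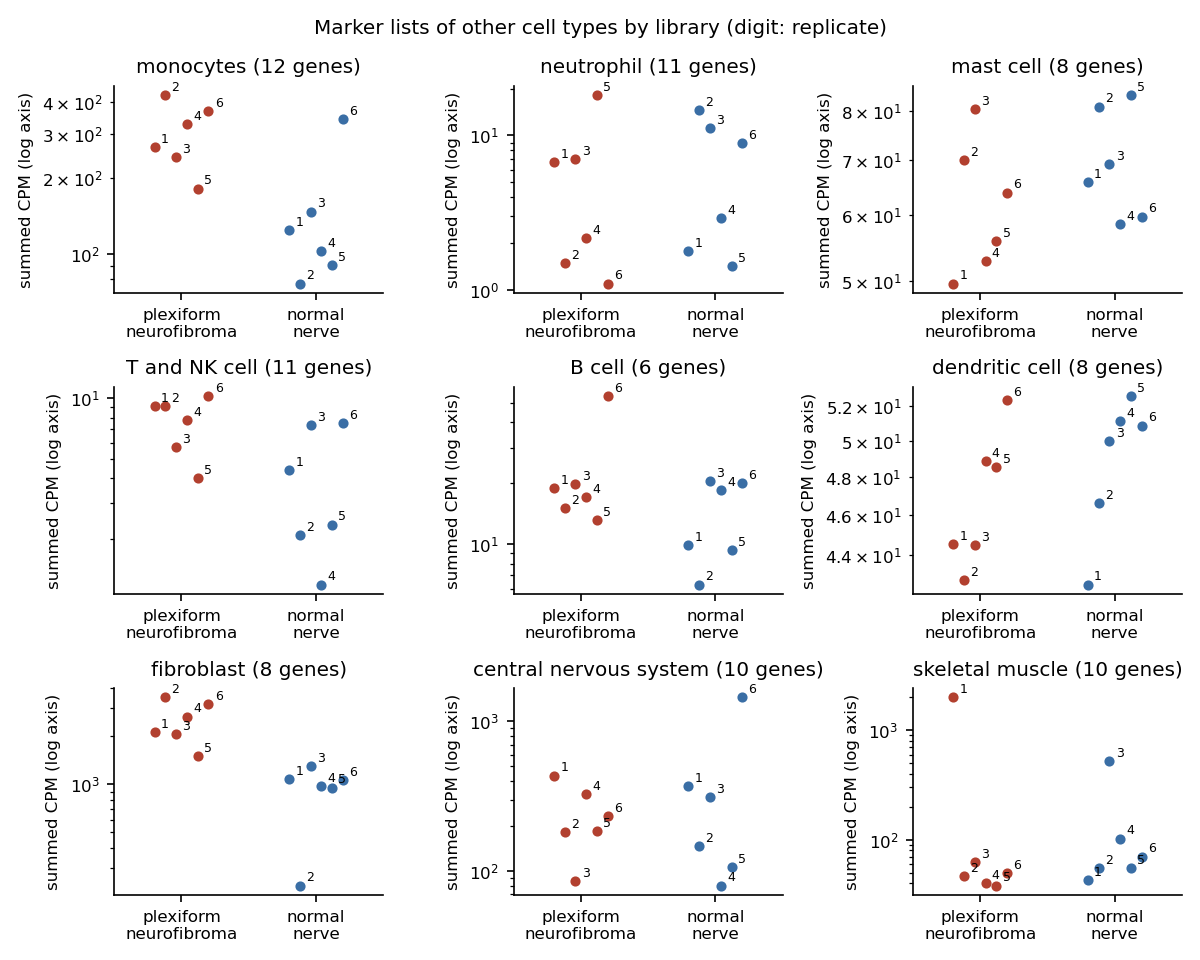
Summed CPM (vertical, log axis) of marker lists of other cell types in each library, plexiform neurofibroma left and normal nerve right, with the replicate number at each point. Fibroblast sums do not overlap between the groups, at 1497 to 3497 CPM against at most 1295 CPM in normal nerve, and replicate 1 of the tumours and replicate 6 of normal nerve stand out for muscle and central nervous system genes.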

How the data were processed

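Libraries of polyA RNA were prepared from column-purified RNA, per the labels' protocols, which name both a stranded kit and a TruSeq kit. FastQC, STAR 2.4.2a, Salmon 0.60, DESeq2 and build mm10 are named per the submitters' processing notes, without role or order. For the counting, neither annotation nor strand setting is given in the sources used. The deposited values are unnormalized estimated counts for each gene symbol, and in each library 84.1% to 86.5% of them were whole within 0.001.

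Expected counts were rounded, genes were filtered with filterByExpr (17236 kept), and groups were compared with the edgeR 4.0.16 quasi-likelihood test (R 4.3.3, TMM factors, robust, no covariate), adjusted over all tested genes by the Benjamini-Hochberg method and called at an adjusted p under 0.05. Every adjusted p comes from this test unless another is named. CPM uses TMM-scaled totals. Class means use log2 CPM with a prior count of 2, and have no test. Gene symbols were looked up in GENCODE vM21 on GRCm38, the assembly of mm10 (45187 of 47480 directly, 626 by an older symbol), for 1-based coordinates of whole genes and the longest transcript. The procedure was tested on simulated data. No pair of libraries held identical values.

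All 36 members are named, with up to 4 called genes of each further list in order of p, or the gene of smallest p in lists without a call. Some genes that this gives are not reported here. Members and lists were chosen with earlier results of these data known. Alternatives were upper-quartile or RLE factors, omitting the filter, DESeq2 1.42.0, a filter at CPM above 1 in 6 or more samples, limma-voom (limma 3.58.1) with sample weights, a transcript length correction (lowess, span 0.3), neuron or muscle marker scores as a covariate, a prior count of 0.5 or the median for class means, and each library left out.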

Additional observations from a re-analysis of the deposited data

Results flagged for a closer look

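In groups of 6, a library was picked out where its gap to the nearest other library as a share of the range of its group exceeded Dixon's 95% critical value. Of 140 groups examined (members, further named genes and list sums, each in 6 libraries of 1 group), 11 met this rule, where chance alone would be met in about 1 of 20 groups.

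Normal nerve replicate 6 was picked out most often. In it Itgam stood at 12.0 CPM, Cx3cr1 at 30.3 CPM and Siglech at 8.01 CPM, each far above the other normal libraries. The summed level of the monocyte list was 342.1 CPM there and that of the central nervous system list 1444 CPM. Markers of central nervous tissue and microglial genes thus stood high in the same library, and their part in its macrophage values was not tested.

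The skeletal muscle list was far above the other libraries of its group in plexiform neurofibroma replicate 1, at 1996 CPM, and in normal nerve replicate 3, at 521.3 CPM. In plexiform neurofibroma replicate 1, Cebpa, a transcription factor shared by macrophages and fat cells, stood at 33.0 CPM. The neutrophil list summed to 18.2 CPM in plexiform neurofibroma replicate 5, the B cell list to 53.8 CPM in plexiform neurofibroma replicate 6, and the fibroblast list to 232.4 CPM in normal nerve replicate 2, the library lowest in most macrophage genes.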

How the results depend on the processing

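Over the 34 tested members and 22 other settings, 622 fits kept direction and side of the threshold, 58 lost a call, 49 gained one and 19 turned a direction. The calls of Aif1, Apoe, Cybb and Lgals3 held in every one of the 22. Members called higher numbered 12, and 22 with limma-voom (16.7% of all genes), 19 with the neuron score as a covariate (11.9%), 21 without the 3 libraries that stood apart (a fit chosen after seeing the data) and 5 to 21 with 1 library left out. Members called lower numbered 1, and 0 with no filter, with the length correction and with the muscle score, 2 with limma-voom, and 0 to 2 with 1 library left out. Over all genes, limma-voom called 2878 higher and 2707 lower against 1730 and 1488, no filter called 902 lower, and leaving out 1 library gave 1092 to 2544 higher and 801 to 2487 lower. DESeq2 called 17 members higher (12.3% of all genes), no filter 9 (4.24%) and the length correction 10 (8.61%).

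The turned directions belong to genes near 0. The log2 fold change of Coro1a was -0.049 with the length correction and below 0 without replicate 5 of the tumours or replicate 6 of normal nerve, in a range from -0.020 to 0.11 over the fits that left out 1 library. The log2 fold change of Pltp was 0.12 with limma-voom, 0.21 without the 3 libraries and -0.42 to 0.15 with 1 library left out, the highest without normal nerve replicate 6. The log2 fold change of Siglec1 was 0.0004 with RLE factors, 0.013 with no filter, 0.0060 with DESeq2, 0.36 with limma-voom, 0.076 with the length correction, 0.17 with the muscle score, 0.64 without the 3 libraries and -0.20 to 0.36 with 1 library left out. The lipid-associated minus pan-macrophage difference turned to -0.0351 without the 3 libraries. The causes were not tested. No paired analysis was possible, because the groups came from mice of different genotype and the labels give no litter to link samples. The replicate numbers used here only name the samples. Counts of a few reads limit Folr2 and Clec10a, whose differences were not detectable at this depth.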
